A study of Homo sapiens with 9 samples.

Results

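The amino acid transporter families described here are the 40 genes of 26475 in the deposited gene tables whose symbol places them in the solute carrier families SLC1, SLC3, SLC7, SLC36, SLC38 or SLC43. The rule that chose them used the symbol and no measured value, but earlier results of these data were known when it was set. Polyadenylated RNA was sequenced from Hep3B, a human hepatocellular carcinoma line, and all 9 libraries, controls included, came from cells kept under hypoxia for 6 h. In the replicated set, 3 libraries received the solvent DMSO and 3 received a compound labelled DHE. In the dose set, 1 library received DMSO, 1 is labelled DHE high and 1 is labelled DHE low. The labels expand neither the name DHE nor the doses, no library was made under normal oxygen, and every library comes from the same line, so the effect of hypoxia itself was not analysed here. The series title concerns citrullination and the stability of the hypoxia-inducible factor HIF-1A.

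Amino acids do not cross membranes unaided, and cells import them through sodium-driven carriers and then trade them through exchangers. In the heteromeric transporters, a heavy subunit of the SLC3 family carries a light subunit of the SLC7 family to the cell surface, where the light subunit does the transport. Sodium-coupled carriers of the SLC38 family load the cell with glutamine and other small neutral amino acids, and exchangers such as LAT1 (SLC7A5) use that pool to bring in leucine and other essential amino acids. On the lysosome, SLC36 and SLC38 members export amino acids or report their supply to the growth kinase mTORC1. When amino acids run short, the transcription factor ATF4 is known to raise transcription of several of these carriers, and hepatocytes are known for sodium-coupled uptake of alanine and glutamine.

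The library totals ranged from 22167516 to 36267216 estimated counts, and the families together took 0.286% to 0.309% of the counts in the replicated set and 0.347% to 0.447% in the dose set. Counts are scaled below to counts relative to the library total (CPM), with edgeR's TMM factors, for comparisons of a transporter gene between libraries. TPM, which also accounts for transcript length, is used for comparisons between genes. Marker levels and their sums are instead in CPM of library totals, without TMM factors. DHE replicate 1 stood apart from the other DHE libraries, with a chi-square distance per gene of 30.2 and 35.8 to DHE replicates 2 and 3 against 5.58 between those 2 libraries. All 10 hepatocyte markers, albumin among them, exceeded 1 CPM in every library, and their summed level was 19547 to 20209 CPM in DMSO and 18407 to 19647 CPM in DHE. Of the 10, 5 were called higher with DHE and 3, AFP, ALB and SERPINA1, lower. In the dose set that sum was 46797 CPM with DMSO, 28645 CPM with DHE high and 19176 CPM with DHE low. Among markers of other cell types, 1 of 8 leukocyte, 2 of 6 fibroblast and 1 of 6 endothelial genes exceeded 1 CPM in every library, while MS4A1, DCN, ACTA2 and KDR were at 0 in all 9. The summed leukocyte markers, nearly all LYZ, were at 36.5 to 40.7 CPM in DMSO and 26.3 to 33.7 CPM in DHE, and the summed endothelial markers, nearly all PECAM1, were at 3.23 to 4.41 and 1.62 to 2.41 CPM. The fibroblast sum was 24.1 to 26.9 CPM in DMSO and 29.1 to 30.7 CPM in DHE. The part of these shifts in the results below was not tested. The labels do not say that replicates are separate cultures, and a p-value here reflects library-to-library spread alone, which may be technical.

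A few carriers supplied most of the transporter RNA. SLC38A2, a sodium-coupled importer of small neutral amino acids (system A), had the highest level in the DMSO libraries, at 287 ± 17.7 TPM (SD, n = 3), or 22.1% of the summed TPM of the 40 genes. SLC43A3, which is placed in an amino acid family but is known as a nucleobase carrier, followed at 275 ± 15.0 TPM, and these levels differed by less than their SDs. SLC1A5, the glutamine exchanger ASCT2, stood below both at 160 ± 4.68 TPM. The leucine exchanger SLC7A5 and its heavy chain SLC3A2 were level with each other, at 87.7 ± 7.0 and 87.0 ± 9.73 TPM. SLC38A10 at 69.2 ± 6.06 TPM, SLC43A1 at 59.0 ± 4.39 TPM and SLC38A1 at 54.4 ± 3.82 TPM came next, and the ranges of mean ± SD overlapped between SLC38A10 and SLC43A1 and between SLC43A1 and SLC38A1. SLC7A6 and SLC7A2, both carriers of cationic amino acids, had the same level, at 34.4 ± 3.08 and 34.4 ± 3.02 TPM.

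**Figure D1:**
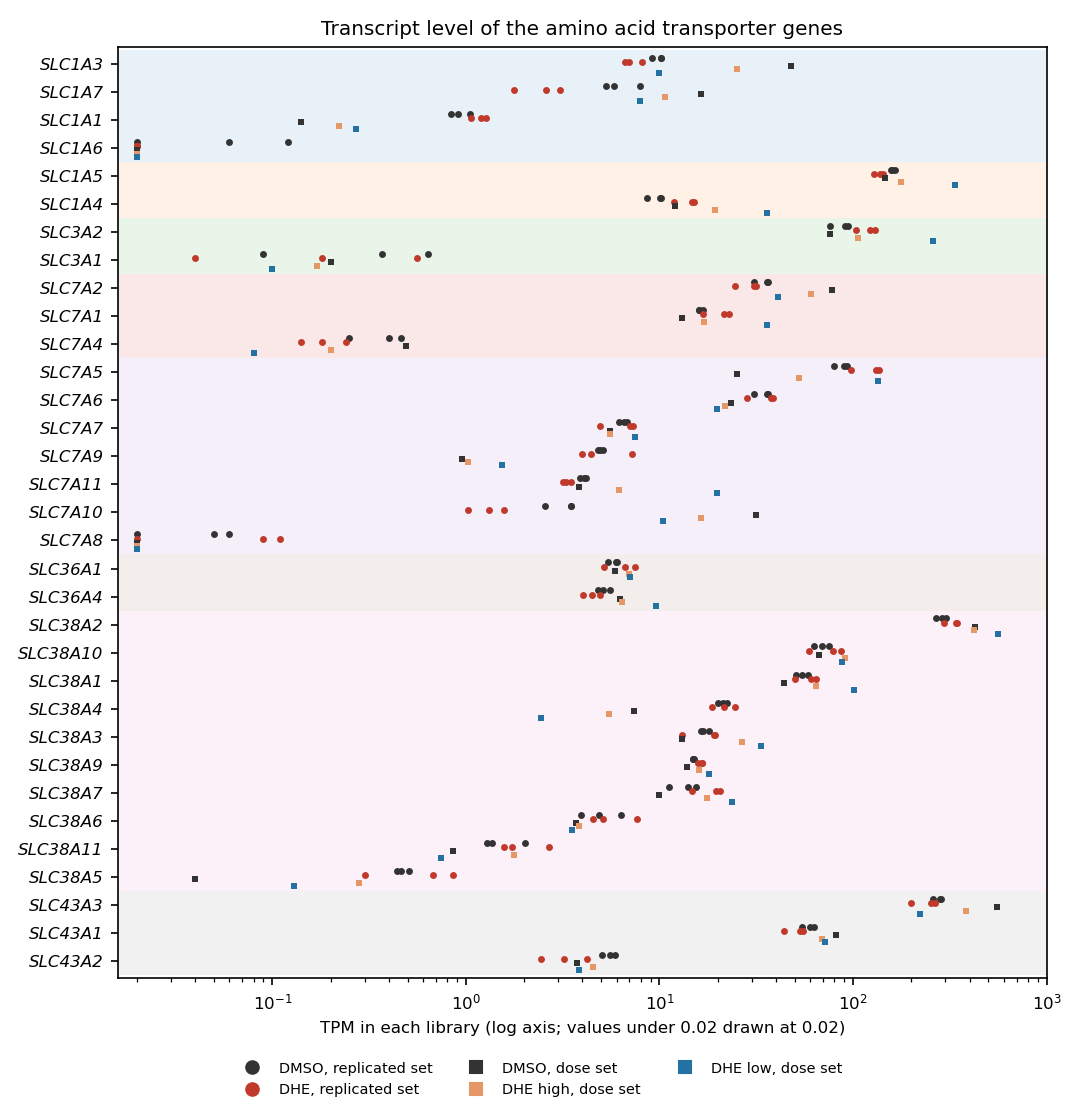
Transcript level of each transporter gene in each of the 9 libraries, in TPM on a log axis, shaded by role; circles are the replicated set and squares the dose set. SLC38A2, SLC43A3 and SLC1A5 lie at the right, and SLC7A10 is near 3.19 TPM in the DMSO libraries of the replicated set and at 31.7 TPM in the DMSO library of the dose set.

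At the low end, 9 of the 40 genes did not pass the low-count filter: SLC1A2, SLC1A6, SLC7A3, SLC7A8, SLC7A13, SLC7A14, SLC36A2, SLC36A3 and SLC38A8. None of these exceeded 6 counts in any library, and SLC7A13, SLC36A2 and SLC36A3 were at 0 in all 9, which allows up to 3 counts a library, or 0.0827 to 0.135 CPM. They include the glial glutamate carrier SLC1A2 and the LAT1 relative SLC7A8, and the libraries cannot show whether DHE moves them at this depth. The other 31 genes were tested. Of these, SLC3A1, SLC7A4 and SLC38A5 also rested on few reads, with 28, 20 and 26 counts in their highest library.

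In the replicated set, the leucine exchanger SLC7A5, its heavy chain SLC3A2 and the cationic carrier SLC7A1 were among the members higher with DHE, and the glutamate carriers SLC1A3 and SLC1A7 and all 3 SLC43 members were lower. Higher were SLC1A4, SLC3A2, SLC7A1, SLC7A5, SLC38A2 and SLC38A7, between 1.12-fold and 1.41-fold. Lower were SLC1A3, SLC1A5, SLC1A7, SLC7A2, SLC7A10, SLC7A11, SLC43A1, SLC43A2 and SLC43A3, between 1.18-fold and 2.74-fold. Thus 15 of the 31 tested genes passed an adjusted p of 0.05 in edgeR's quasi-likelihood test, 6 upward and 9 downward, where 26.2% of all 14492 tested genes passed, 13.4% upward and 12.8% downward. The groups did not overlap for 17 of the 31, where 41.6% of all tested genes did not overlap. The median log2 fold change was -0.01 over the transporters and -0.0033 over all tested genes. Without DHE replicate 1 the counts were again 6 and 9, and on the log2(TPM + 1) scale limma called only 2 upward, SLC3A2 and SLC7A5, and 3 downward, SLC1A7, SLC7A10 and SLC43A2. In bulk RNA, fewer cells expressing a gene and less RNA per cell cannot be told apart.

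**Figure D2:**
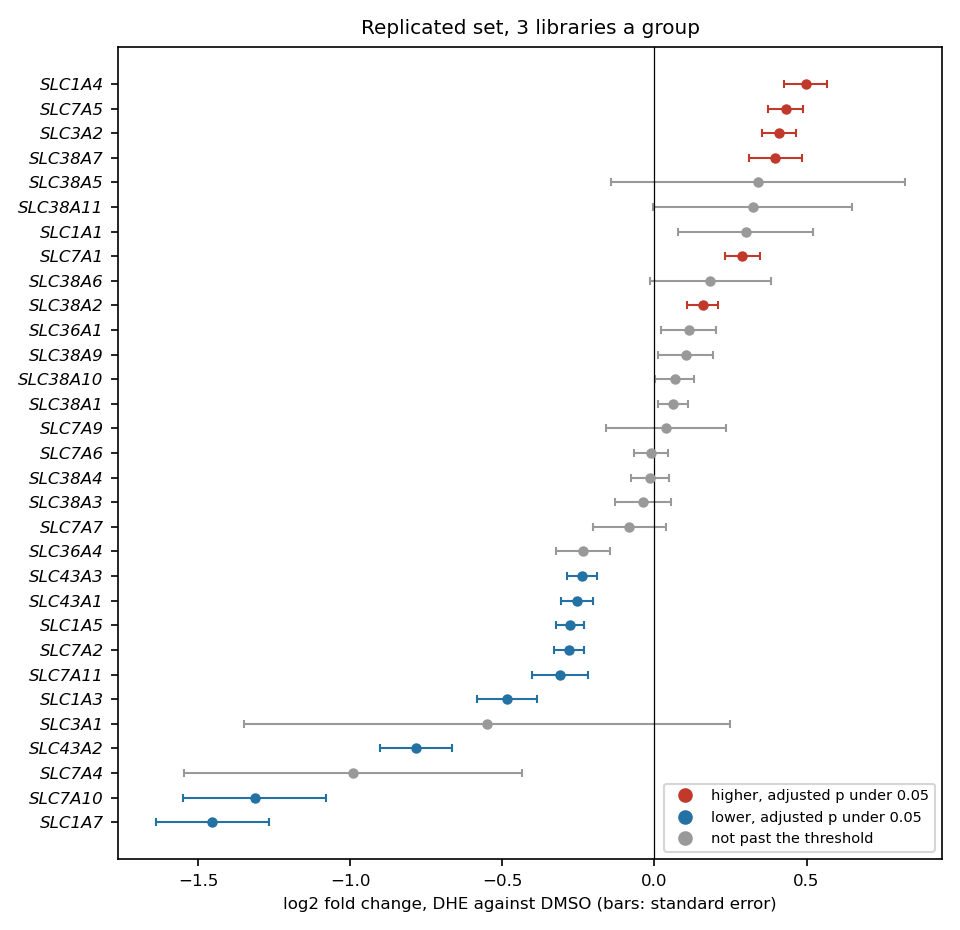
Log2 fold change of DHE against DMSO for the 31 tested transporter genes of the replicated set, with the standard error as bars; colour marks the genes past the adjusted p threshold. SLC1A7 at -1.45 and SLC7A10 at -1.31 lie farthest to the left, and the 6 rises lie between 0.16 and 0.50.

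The heavy chain SLC3A2 and its light chain SLC7A5 rose together. SLC3A2, the CD98 heavy chain that anchors most light subunits at the surface, was at 82.5, 89.8 and 93.5 CPM in the DMSO libraries and at 117, 121 and 115 CPM in the DHE libraries. Every DHE library lay above every DMSO library, a 1.33-fold rise (log2 fold change 0.41 ± 0.06 SE, edgeR adjusted p = 2.45e-04). SLC7A5, the LAT1 subunit that exchanges intracellular glutamine for leucine and other large neutral amino acids, was at 225, 238 and 230 CPM with DMSO and at 287, 326 and 322 CPM with DHE. This was a 1.35-fold rise (log2 fold change 0.43 ± 0.06 SE, edgeR adjusted p = 1.90e-04), with DHE replicate 1 the lowest of the 3 treated libraries. The level of SLC7A5 per SLC3A2, a ratio of TPM, was 1.01 ± 0.0483 with DMSO and 1.02 ± 0.0721 with DHE (SD, n = 3), so the pair kept its proportion within the spread. SLC7A5 has 2 near-identical copies in the tables, SLC7A5P1 and SLC7A5P2, with at most 83 and 226 counts, so reads between these copies are uncertain. The other heavy chain, SLC3A1, which serves cystine and cationic amino acids in the kidney, had too few counts for a direction (edgeR adjusted p = 0.655).

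The other light chains fell or did not pass the test. SLC7A11, the xCT subunit that imports cystine in exchange for glutamate for glutathione synthesis, was at 24.1, 23.0 and 23.5 CPM with DMSO and at 21.3, 18.4 and 17.3 CPM with DHE. All 3 DHE libraries were below all 3 DMSO libraries, by 1.24-fold (log2 fold change -0.31 ± 0.09 SE, edgeR adjusted p = 0.0240). This call was lost without DMSO replicate 1 (0.0849), DMSO replicate 3 (0.0685), DHE replicate 2 (0.0810) or DHE replicate 3 (0.0928), all edgeR adjusted p-values. Over all alternatives, the limma and DESeq2 fits included, the adjusted p ranged from 0.00495 to 0.409. With SLC3A2 higher and SLC7A11 lower, the TPM of SLC7A11 per SLC3A2 went from 0.0467 ± 0.00372 with DMSO to 0.0282 ± 0.00287 with DHE (SD, n = 3), without overlap. SLC7A10, a carrier of small neutral amino acids and D-serine best known from brain and fat, was at 2.78, 3.46 and 3.46 CPM with DMSO and at 1.17, 1.23 and 1.49 CPM with DHE. It fell 2.49-fold (log2 fold change -1.31 ± 0.24 SE, edgeR adjusted p = 0.00138), from a level that was already low. SLC7A6 (log2 fold change -0.01 ± 0.06 SE), SLC7A7 (-0.08 ± 0.12) and SLC7A9 (0.04 ± 0.20), all exchangers that handle cationic amino acids, did not pass, with edgeR adjusted p-values of 0.906, 0.653 and 0.915. Of the 6 tested light chains, 1 was therefore higher and 2 were lower, or 50% called, where 26.2% of all tested genes were.

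**Figure D3:**
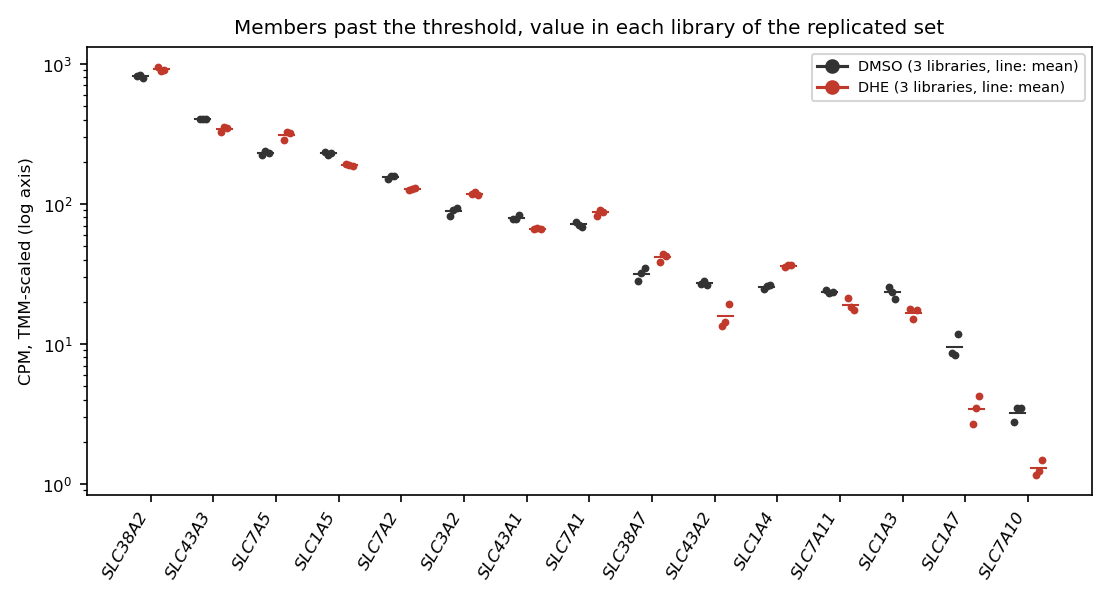
TMM-scaled CPM on a log axis in the 3 DMSO and 3 DHE libraries of the replicated set for the 15 transporter genes past the threshold, ordered by level, with the group means as lines. The groups of each gene do not overlap, and SLC1A7 and SLC7A10 show the widest separation at the low end.

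The neutral amino acid exchangers of the SLC1 family moved in opposite directions. SLC1A4, the exchanger ASCT1 for alanine, serine and cysteine, was at 24.5, 25.9 and 26.5 CPM with DMSO and at 35.3, 36.4 and 36.7 CPM with DHE. It rose 1.41-fold (log2 fold change 0.50 ± 0.07 SE, edgeR adjusted p = 3.17e-04), the largest of the 6 rises. SLC1A5, or ASCT2, the more abundant of the pair and a main route of glutamine into tumour cells, was at 234, 224 and 232 CPM with DMSO and at 193, 190 and 187 CPM with DHE. It fell 1.21-fold (log2 fold change -0.28 ± 0.05 SE, edgeR adjusted p = 9.25e-04). The TPM of SLC1A4 per SLC1A5 went from 0.0598 ± 0.00530 to 0.102 ± 0.00838 (SD, n = 3), so the DHE cells still held far more SLC1A5 than SLC1A4 RNA.

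The cationic amino acid carriers of the SLC7 family also parted. SLC7A1, the widely expressed arginine and lysine carrier CAT1, was at 74.7, 71.0 and 68.0 CPM with DMSO and at 82.3, 90.6 and 88.0 CPM with DHE. It rose 1.22-fold (log2 fold change 0.29 ± 0.06 SE, edgeR adjusted p = 0.00299). SLC7A2, whose liver form is the low-affinity CAT2, was at 149, 159 and 157 CPM with DMSO and at 125, 129 and 130 CPM with DHE. It fell 1.21-fold (log2 fold change -0.28 ± 0.05 SE, edgeR adjusted p = 0.00120). The TPM of SLC7A1 per SLC7A2 was 0.475 ± 0.0370 with DMSO and 0.702 ± 0.0236 with DHE (SD, n = 3), while the summed TPM of the cationic group was 51.0 ± 3.24 and 49.6 ± 6.87, a difference within the spread. SLC7A4, an orphan relative, had a log2 fold change of -0.99 ± 0.55 SE at 5 to 20 counts a library of this set and did not pass (edgeR adjusted p = 0.212).

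Both glutamate and aspartate carriers with appreciable RNA fell. SLC1A7, the glutamate carrier EAAT5 known from the retina, was at 8.58, 8.29 and 11.7 CPM with DMSO and at 2.67, 3.47 and 4.23 CPM with DHE. This 2.74-fold fall was the largest among the transporters that passed (log2 fold change -1.45 ± 0.19 SE, edgeR adjusted p = 1.42e-04). SLC1A3, the carrier EAAT1 that clears glutamate in the brain and supplies aspartate and glutamate to some tumour cells, was at 25.4, 23.4 and 21.1 CPM with DMSO and at 17.7, 14.9 and 17.3 CPM with DHE. Its fall was 1.40-fold (log2 fold change -0.48 ± 0.10 SE, edgeR adjusted p = 0.00322). SLC1A1, the epithelial carrier EAAT3, had a log2 fold change of 0.30 ± 0.22 SE, and its groups did not overlap, but it did not pass the test (edgeR adjusted p = 0.354). The summed TPM of the 5 glutamate carriers was 17.2 ± 0.975 with DMSO and 10.9 ± 1.44 with DHE (SD, n = 3).

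Within the SLC38 family, 2 of 10 tested members rose and the other 8 did not pass. This is 20% called, all upward, where 26.2% of all tested genes were called, 13.4% upward. SLC38A2, the abundant and nutrient-responsive system A carrier, was at 815, 835 and 798 CPM with DMSO and at 943, 888 and 901 CPM with DHE. Its 1.12-fold rise was the smallest that passed (log2 fold change 0.16 ± 0.05 SE, edgeR adjusted p = 0.0348). The call was lost without DMSO replicate 1 (0.0956), 2 (0.0667) or 3 (0.132) and without DHE replicate 2 (0.0541) or 3 (0.0821), again edgeR adjusted p-values. Over all alternatives the adjusted p ranged from 0.00787 in DESeq2 to 0.268 in limma on log2(TPM + 0.1). SLC38A7, which exports glutamine and asparagine from the lysosome, was at 28.0, 31.9 and 34.8 CPM with DMSO and at 38.3, 43.7 and 42.7 CPM with DHE. It rose 1.32-fold (log2 fold change 0.40 ± 0.09 SE, edgeR adjusted p = 0.00492).

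The members of the family best known from liver did not pass the test in this set. SLC38A4, the hepatic system A carrier, had a log2 fold change of -0.01 ± 0.06 SE, and SLC38A3, the hepatic glutamine carrier of system N, one of -0.04 ± 0.09 SE, with edgeR adjusted p-values of 0.894 and 0.801. SLC38A1, a system A carrier common in tumour cells, stood at 0.06 ± 0.05 SE (edgeR adjusted p = 0.406), and SLC38A9, the arginine sensor of the lysosome, at 0.10 ± 0.09 SE (0.435). For SLC38A5, SLC38A6, SLC38A10 and SLC38A11, edgeR adjusted p-values were 0.478 to 0.649. On the lysosomal proton-coupled side, SLC36A1 was at 19.7, 19.6 and 19.9 CPM with DMSO and at 19.7, 20.5 and 23.8 CPM with DHE. DHE replicates 2 and 3 lay above every DMSO library and DHE replicate 1 did not (edgeR adjusted p = 0.389). SLC36A4 was lower in each DHE library, at 16.1, 14.5 and 16.3 CPM against 18.4, 19.2 and 17.6 CPM, but missed the threshold (edgeR adjusted p = 0.0696).

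All 3 members of the SLC43 family fell, where 12.8% of all tested genes were called lower. SLC43A2, or LAT4, which lets branched-chain amino acids and phenylalanine out of or into cells without a heavy chain, was at 26.6, 28.1 and 26.5 CPM with DMSO and at 13.5, 14.3 and 19.3 CPM with DHE. It fell 1.72-fold (log2 fold change -0.78 ± 0.12 SE, edgeR adjusted p = 4.56e-04), with DHE replicate 3 above the other treated libraries. SLC43A1, or LAT3, a facilitated carrier of the same substrates known from liver and prostate, was at 77.8, 77.5 and 82.6 CPM with DMSO and at 65.6, 67.3 and 66.5 CPM with DHE, a 1.19-fold fall (log2 fold change -0.25 ± 0.05 SE, edgeR adjusted p = 0.00347). SLC43A3, the nucleobase carrier, was at 403, 404 and 404 CPM with DMSO and at 327, 353 and 346 CPM with DHE, a 1.18-fold fall (log2 fold change -0.24 ± 0.05 SE, edgeR adjusted p = 0.00389). SLC43A3 and SLC43A1 are neighbours on chromosome 11 of GRCh38.p14, at chr11:57406954-57427580 and chr11:57484534-57515702, with 57.0 kb between them. Another neighbouring pair, SLC7A9 and SLC7A10 on chromosome 19, lies 338.9 kb apart and had log2 fold changes of 0.04 and -1.31. Since SLC43A3 is so abundant, its share of the families' summed TPM went from 21.1% to 17.7%, while that of SLC38A2 went from 22.1% to 24.3%.

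The promoter windows of all members with an entry were read from RefSeq (GRCh38.p14), whether or not the gene passed the test. Each window holds 250 bases before and 50 bases after an annotated transcript start. Windows were found for 31 of the 40 genes, 53 in all, and SLC7A2, SLC7A11 and SLC43A3 are among those without an entry. The letters TGATGNAA, the form of the C/EBP-ATF response element that ATF4 is known to bind, were searched on both strands. They occurred in 6 of the 53 windows (11.3%), against 1270 of all 35116 windows (3.62%). The genes were SLC1A4, SLC3A2 and SLC7A1, which rose, SLC1A3 and SLC1A5, which fell, and SLC38A1, which did not pass. The windows of 3 rising members and of SLC1A3 are shown to place these letters, and that of SLC7A5 is shown because it rose and holds no match. Each sequence reads 5′ to 3′ in the direction of the gene, and capitals mark the match, which in SLC1A4 and SLC3A2 lies on the opposite strand and so reads as the reverse complement.
SLC1A4, chr2:64989149-64989448, plus strand: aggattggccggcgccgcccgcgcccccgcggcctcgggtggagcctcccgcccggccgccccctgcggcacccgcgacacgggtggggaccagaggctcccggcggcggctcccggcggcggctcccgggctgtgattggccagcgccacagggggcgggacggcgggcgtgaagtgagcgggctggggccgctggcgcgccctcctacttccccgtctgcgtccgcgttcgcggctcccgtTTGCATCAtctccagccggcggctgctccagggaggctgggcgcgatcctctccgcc
SLC3A2, chr11:62881449-62881748, plus strand: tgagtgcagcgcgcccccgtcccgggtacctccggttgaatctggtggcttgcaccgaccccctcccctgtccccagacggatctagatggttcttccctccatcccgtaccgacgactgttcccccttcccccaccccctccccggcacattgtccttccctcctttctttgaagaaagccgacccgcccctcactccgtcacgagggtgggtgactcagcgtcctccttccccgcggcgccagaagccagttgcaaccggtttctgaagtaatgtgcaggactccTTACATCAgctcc
SLC7A1, chr13:29595639-29595938, minus strand: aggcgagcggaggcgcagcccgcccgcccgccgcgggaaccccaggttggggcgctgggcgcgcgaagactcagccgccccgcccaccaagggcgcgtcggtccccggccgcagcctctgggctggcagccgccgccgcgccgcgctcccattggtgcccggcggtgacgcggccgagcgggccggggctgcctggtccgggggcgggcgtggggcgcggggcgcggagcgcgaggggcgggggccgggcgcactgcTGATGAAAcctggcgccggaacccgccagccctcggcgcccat
SLC1A3, chr5:36596338-36596637, plus strand: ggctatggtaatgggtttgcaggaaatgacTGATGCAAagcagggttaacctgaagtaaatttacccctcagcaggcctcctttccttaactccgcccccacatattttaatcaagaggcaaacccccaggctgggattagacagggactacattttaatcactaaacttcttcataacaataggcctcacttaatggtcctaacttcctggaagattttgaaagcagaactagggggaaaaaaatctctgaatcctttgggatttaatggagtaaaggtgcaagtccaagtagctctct
SLC7A5, chr16:87869458-87869757, minus strand: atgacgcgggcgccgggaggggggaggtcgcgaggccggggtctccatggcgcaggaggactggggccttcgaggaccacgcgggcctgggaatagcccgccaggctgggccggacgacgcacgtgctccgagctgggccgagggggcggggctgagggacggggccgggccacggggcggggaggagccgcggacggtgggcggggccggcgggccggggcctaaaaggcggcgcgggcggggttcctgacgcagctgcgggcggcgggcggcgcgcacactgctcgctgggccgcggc

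In SLC1A4 the capitals fall across the start of transcription, and in SLC7A1 and SLC3A2 they fall just after it, while in SLC1A3 they lie near the far end of the window. SLC1A3, SLC1A4, SLC1A5, SLC3A2 and SLC38A1 have further annotated starts whose windows hold no match. The core of the hypoxia response element, searched as ACGTG and GCGTG, occurred in 17 (32.1%) and 28 (52.8%) of the 53 windows, against 21.4% and 36.5% of all windows. The antioxidant response element, searched as TGACNNNGC, occurred in 7 of the 53 (13.2%) and in 13.3% of all windows. All were searched on both strands, and these motifs can overlap, since ACGTG can lie within TGACNNNGC. A match describes letters and is not a measured binding site.

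In the dose set, the DHE libraries showed larger differences in several transporters, with 1 library a group and therefore no test. At least 20 counts in 1 of the 3 libraries were required, which 27 of the 40 genes reached. With DHE low, 8 of the 27 were at least 2-fold higher and 6 at least 2-fold lower than with DMSO, where 2.96% and 6.68% of all 13468 genes were. With DHE high, 0 of the 27 were at least 2-fold higher and 2 at least 2-fold lower, where 0.898% and 3.39% of all genes were. The median log2 ratio of the 27 was 0.08 with DHE high and 0.22 with DHE low, and that of all genes 0.0025 and 0.0076. Under scaling by library totals, the medians of all genes were 0.08 and 0.15. Both ratios share the same DMSO library. The intervals below are exact binomial 95% intervals and cover counting error only. The hepatocyte marker sum given above differed between the same 3 libraries. With DMSO, DHE high and DHE low, the summed markers were at 100.4, 93.7 and 68.1 CPM for leukocytes, 29.5, 32.1 and 53.1 CPM for fibroblasts and 7.42, 3.45 and 3.29 CPM for endothelium. These sums are scaled by library totals and the ratios by TMM factors. The part of the sums in the ratios was not tested.

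The carriers that rose in the replicated set, SLC38A2 apart, were also higher in both DHE libraries of the dose set. SLC7A5 was at 67.5 CPM with DMSO, 129 CPM with DHE high and 320 CPM with DHE low. These are ratios of 1.92 (interval 1.81 to 2.03) and 4.73 (4.49 to 4.99), the highest among the transporters for either library. Its heavy chain SLC3A2 was at 81.6, 104 and 244 CPM, ratios of 1.28 (1.21 to 1.36) and 3.0 (2.85 to 3.15). Unlike in the replicated set, the TPM of SLC7A5 per SLC3A2 was not level, at 0.333 with DMSO, 0.495 with DHE high and 0.514 with DHE low. SLC1A4 was at 32.4, 48.2 and 87.2 CPM, ratios of 1.49 (1.36 to 1.63) and 2.69 (2.48 to 2.92). SLC7A1 was at 57.7, 68.9 and 143 CPM, ratios of 1.19 (1.11 to 1.28) and 2.47 (2.32 to 2.63). The lysosomal SLC38A7 was at 23.7, 38.7 and 50.6 CPM, ratios of 1.64 (1.48 to 1.81) and 2.14 (1.94 to 2.36). For each of these carriers the library labelled low differed from DMSO more than the library labelled high. The labels give no doses, so which of the 2 libraries received more compound rests on the words high and low alone, and an exchange of these labels was not tested. Of the 6 transporters that rose in the replicated set, 5 were higher in both DHE libraries here, where 67.7% of all 1909 such genes were.

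SLC38A2, the remaining one, was at 1232 CPM with DMSO, 1120 CPM with DHE high and 1437 CPM with DHE low, so it was lower in one library and higher in the other. SLC38A1 and SLC38A3, which did not pass in the replicated set, were higher here. The system A carrier SLC38A1 was at 209, 284 and 431 CPM, ratios of 1.36 (1.31 to 1.41) and 2.07 (2.0 to 2.14). The system N carrier SLC38A3 was at 18, 33.8 and 41.1 CPM, ratios of 1.88 (1.67 to 2.10) and 2.28 (2.04 to 2.56). The hepatic SLC38A4 went the other way, at 16.7, 11.3 and 4.86 CPM, 1.47-fold (1.27 to 1.72) and 3.44-fold (2.79 to 4.27) lower.

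**Figure D4:**
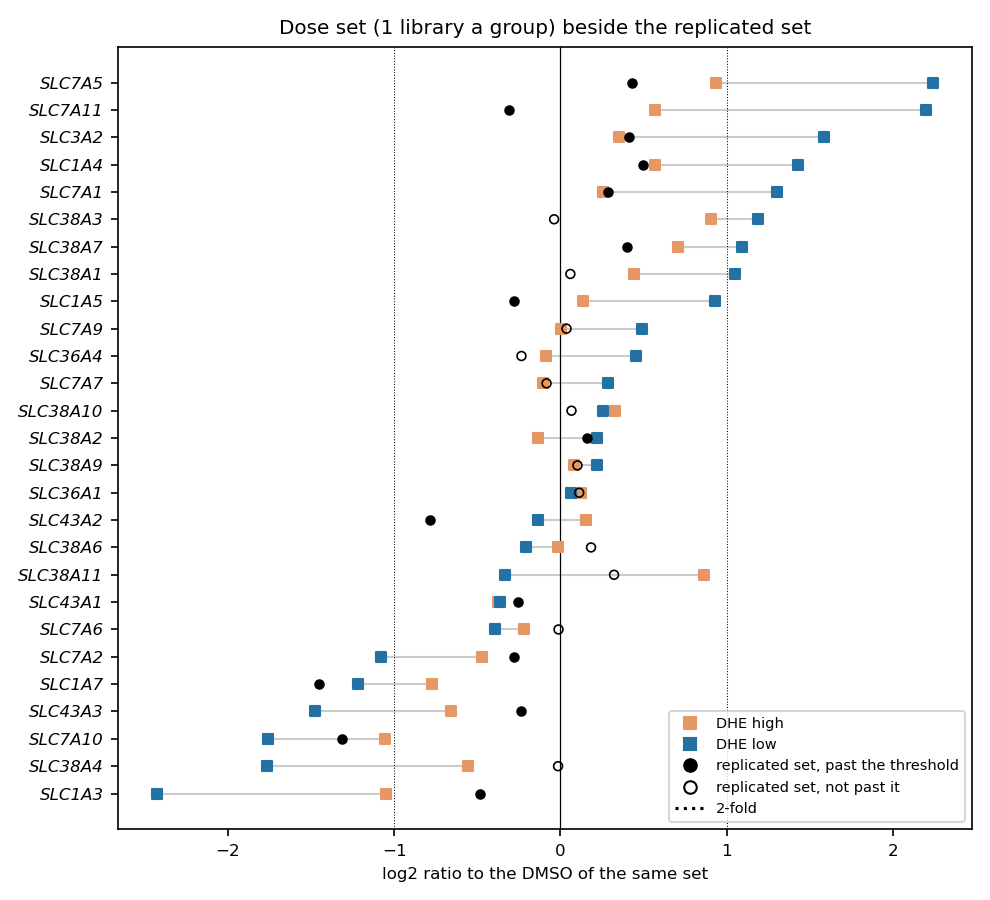
Log2 ratio of DHE high (orange squares) and DHE low (blue squares) to the DMSO library of the dose set for 27 transporter genes, with the fold change of the replicated set as circles, filled where past the threshold. SLC7A5 and SLC7A11 reach 2.24 and 2.20 with DHE low, and SLC1A3 reaches -2.42; the circle of SLC7A11 lies on the other side of 0.

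The glutamine exchanger SLC1A5 and the cystine exchanger SLC7A11 differed in sign between the sets. SLC7A11 was at 22.6 CPM with DMSO, 33.4 CPM with DHE high and 104 CPM with DHE low, ratios of 1.48 (1.33 to 1.65) and 4.61 (4.21 to 5.05), whereas it fell in the replicated set. SLC1A5 was at 230, 252 and 438 CPM, ratios of 1.10 (1.06 to 1.14) and 1.91 (1.85 to 1.97), and it too fell in the replicated set. The TPM of SLC7A11 per SLC3A2 was 0.0507, 0.0583 and 0.0763 in the dose set. SLC43A2 was at 18.7, 20.9 and 17.1 CPM, close to its control in both libraries, and with scaling by library totals its ratio with DHE low changed sign.

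The carriers SLC1A3, SLC1A7, SLC7A10, SLC43A3, SLC43A1 and the cationic carrier SLC7A2 were also lower in both DHE libraries of the dose set. The cationic carrier SLC7A1 was higher in both, as given above. SLC1A3 was at 116 CPM with DMSO, 56.2 CPM with DHE high and 21.6 CPM with DHE low, 2.07-fold (1.94 to 2.21) and 5.39-fold (4.90 to 5.93) lower. SLC1A7 was at 25.2, 14.7 and 10.8 CPM, 1.71-fold (1.5 to 1.95) and 2.33-fold (2.01 to 2.71) lower. SLC7A10 was at 33.3, 16.0 and 9.77 CPM, 2.08-fold (1.85 to 2.35) and 3.40-fold (2.94 to 3.96) lower. All 3 of these also fell in the replicated set. SLC43A3 was at 822, 521 and 295 CPM, 1.58-fold (1.54 to 1.61) and 2.78-fold (2.71 to 2.86) lower, and its neighbour SLC43A1 at 114, 87.6 and 88.4 CPM, 1.3-fold (1.23 to 1.37) and 1.29-fold (1.22 to 1.36) lower. SLC7A2 was at 354, 255 and 168 CPM, 1.39-fold (1.34 to 1.43) and 2.11-fold (2.03 to 2.19) lower, so that the TPM of SLC7A1 per SLC7A2 was 0.168, 0.279 and 0.877. Of the 9 transporters that fell in the replicated set, 6 were lower in both DHE libraries of the dose set, where 69.1% of all 1792 such genes were.

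The members' RNA was also compared for the mean transcript length that RSEM weights by isoform, a measure not used by the count test. Among 19 tested members whose length varied by at least 1 base between libraries, 6 had groups that did not overlap, where 15.0% of all 6761 such genes did not. Among these 6 the largest shift was in SLC38A6, a little-studied SLC38 member, from 1665 ± 4.54 bases with DMSO to 1687 ± 4.58 with DHE (SD, n = 3). In the dose set its mean length was 1662 bases with DMSO, 1710 with DHE high and 1688 with DHE low. The next largest of the 6 shifts was in SLC38A4, from 3876 ± 7.68 bases with DMSO to 3862 ± 2.28 with DHE. Its dose-set lengths were 3893 bases with DMSO, 3875 with DHE high and 3837 with DHE low. The mean length of SLC3A2 was shorter with DHE, at 1941 ± 2.37 against 1949 ± 3.45 bases. SLC7A6 was 8.42 bases longer with DHE, and all these shifts are small parts of a transcript. With DMSO, DHE high and DHE low of the dose set, SLC3A2 was at 1982, 1970 and 1946 bases. SLC7A6 was at 6296, 6286 and 6312 bases there, so it was shorter with DHE high and longer with DHE low. No test was made of these lengths.

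Of 24 tested amino acid carriers outside these families, 2 were higher and 7 lower in the replicated set. As shares, 8.33% were higher and 29.2% lower, where 13.4% and 12.8% of all tested genes were, or 26.2% in either direction. The median log2 fold change of these carriers was -0.08. The taurine carrier SLC6A6 fell, with a log2 fold change of -0.74 (edgeR). The mitochondrial aspartate and glutamate carriers parted, with log2 fold changes of 0.30 for SLC25A13 and -1.45 for SLC25A12 (edgeR adjusted p = 0.0280). SLC25A12 did not reach 20 counts in any dose-set library. Without DMSO replicate 2, the carriers called numbered 5 in place of 9. Of 29 genes for ATF4 and its known targets, transporters left out, 4 were higher and 8 lower, with a median of -0.07. These are 13.8% and 27.6%, where 13.4% and 12.8% of all tested genes were higher and lower. ATF4 itself did not pass, with a log2 fold change of 0.03 (edgeR adjusted p = 0.649). The largest changes among those called were rises of ATF5 (0.97) and NUPR1 (0.67) and falls of VLDLR (-0.77) and PCK2 (-0.56). ASNS, the asparagine synthetase, rose by 0.24 on the log2 scale, while the pseudokinase TRIB3 fell by 0.23 and the stress factor DDIT3 fell by 0.44. With DHE low in the dose set, 15 of these 29 were at least 2-fold higher and 0 at least 2-fold lower, where 2.96% and 6.68% of all genes were, and the median log2 ratio was 1.13. With DHE high, 1 of the 29 was at least 2-fold higher, where 0.898% of all genes were, and the median was 0.05.

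For amino acid sensing by mTORC1, 3 of 32 genes were higher and 3 lower (18.8% called, where 26.2% of all genes were), with a median of 0.06. The number called was 2 without DMSO replicate 2 and 3 without DHE replicate 3, in place of 6. Of 17 enzymes of glutamine, glutamate and glutathione, 3 were higher and 1 was lower (23.5% called, near the 26.2% of all genes), with a median of 0.09. Leaving out any library in turn reduced those 4 calls to between 1 and 2.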

How the data were processed

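Per the labels' protocols, TRIzol was used for extraction and an NEBNext Ultra kit for polyA libraries. The deposited gene tables hold RSEM expected counts, which are estimated counts that are not normalized, and TPM and FPKM values that the authors' RSEM run scaled for length and library, per the file headers; no FPKM enters a result. Per the submitters' processing notes the build was GRCh38. Which aligner was run, and whether strand was used, is not given in the sources used here; genes with overlapping or near-identical copies are therefore uncertain.

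Members and lists were chosen with earlier results of these data known. Expected counts were rounded. DHE and DMSO of the replicated set (3 libraries each) were tested against each other in edgeR 4.0.16 (R 4.3.3): TMM scaling, the default low-count filter, the two-sided quasi-likelihood F-test over all 14492 genes kept and Benjamini-Hochberg adjustment at 0.05. The script was tested on simulated counts. It recovered 54% of genes changed 1.3-fold, 88% of those changed 1.5-fold and 98% of those changed 2-fold. Of its calls, 5.03% were false. Genes with few counts were not among those changed, and a small change can be missed. Dose-set log2 ratios and 2-fold counts use CPM scaled by TMM and a prior count of 2, with no test. The fold ratios given with intervals use the same scaling without a prior count. Values in every library are given for each member past the threshold, for the best known tumour carriers and for dose-set members with at least 100 counts and a 2-fold ratio. Alternatives were DESeq2 1.42.0, limma 3.58.1, other scalings and filters, all 9 libraries in 1 fit, a replicate block and each library left out. Depth of 22167516 to 36267216 counts puts the 3-count floor at 0.0827 to 0.135 CPM. All 40 members were matched by accession to RefSeq GRCh38.p14.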

Additional observations from a re-analysis of the deposited data

Results flagged for a closer look

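SLC1A5, the glutamine exchanger, fell in the replicated set (log2 fold change -0.28), with every DHE library below every DMSO library, while both DHE libraries of the dose set were above their DMSO library, by log2 ratios of 0.13 and 0.93. SLC7A11, the cystine and glutamate exchanger, likewise fell in the replicated set (log2 fold change -0.31) and was higher in both DHE libraries of the dose set, by 0.57 and 2.20. The difference between the sets was not tested for either gene. The limit planned for this list was 1.5-fold in both DHE libraries of the dose set, and neither gene met it. With DHE high the ratio was 1.10 for SLC1A5 and 1.48 for SLC7A11. Both are listed here by direction alone.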

How the results depend on the processing

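All 15 transporters past the threshold kept their direction under all 16 alternatives, and SLC1A7, SLC3A2, SLC7A5, SLC7A10 and SLC43A2 also kept the call. With limma on log2(TPM + 1), members called were 2 higher and 3 lower, and all genes called 497 and 448. Other carriers called were 1, ATF4 targets 7, mTORC1 sensing genes 0 and glutamine enzymes 0. At an unadjusted p under 0.05 the same fit gave 4 sensing genes and 2 enzymes. DESeq2 gave 6 and 5 at an adjusted p under 0.05. With limma on log2(TPM + 0.1) the adjusted counts, in the same order, were 2, 3, 486, 436, 1, 7, 0 and 0, with 5 and 2 unadjusted. The cause of the lower counts in these limma fits was not tested. Leaving out each library gave 5 to 6 members higher and 8 to 9 lower, 1329 to 2032 genes higher and 1242 to 1948 lower, and 5 to 7 other carriers, 9 to 12 ATF4 targets, 2 to 7 sensing genes and 1 to 2 enzymes called. Members at least 2-fold higher with DHE high were 1 with library totals, 2 by TPM and 4 at a 1.5-fold limit, and those lower 0, 0 and 4. Same-numbered libraries did not deviate together (correlations 0.085, 0.0525 and -0.0477), and not every library correlated best with its own number; a replicate block gave 6 members higher and 9 lower, and 2250 and 2186 of all genes. Members with few counts, such as SLC3A1 and SLC7A4, are limited by depth.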

Other observations

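The transporter levels of the DMSO-treated cells differed between the sets. In TPM, the DMSO mean of the replicated set and the DMSO library of the dose set were 3.19 and 31.7 for SLC7A10, 9.87 and 48.0 for SLC1A3, 34.4 and 77.7 for SLC7A2, and 275 and 553 for SLC43A3. The order was the other way for the leucine exchanger SLC7A5 at 87.7 and 25.3, the hepatic carrier SLC38A4 at 21.2 and 7.38, and the light chain SLC7A9 at 4.95 and 0.95. Both controls carry the same labels for line, solvent, hypoxia and time, and with 1 DMSO library in the dose set no test was made.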
